A study of Mus musculus with 2 samples.

Results

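The proximal VH domain is the stretch of the mouse immunoglobulin heavy chain (Igh) locus whose VH genes, mostly of the VH7183 and VHQ52 families, lie nearest to the constant end. It was taken as all assayed restriction fragments with a midpoint from 114815000 up to 115160000 on chromosome 12 (mm9), a length of 345 kb, an approximate outline of these families. The rule used position only. It gave 16 of the 206 assayed fragments, 5 read by forward primers (F130, F158, F165, F174 and F191) and 11 by reverse primers (R125, R129, R131, R137, R153, R161, R171, R181, R187, R192 and R208). Every forward and reverse primer pair with at least 1 end in the domain is a member, which made 1563 of the 10584 pairs. Members toward the constant end have their other end below the domain, down to 114339456, where the assayed interval starts. Those toward the other VH domains have it above the domain, up to 117350186, where it stops. Both names stand for position only, and each side can include fragments outside the constant or VH genes. Just inside the lower edge lies R125 (114809751 to 114823609, which starts below the edge), with a median of 78.5 and 86.5 counts per pair in replicates 1 and 2, and just outside lies F117 (114791568 to 114794187) with 5 and 3. Just inside the upper edge lies R208 with 245 and 201.5, and just outside lies R231 (115209244 to 115211291) with 36.5 and 36.5.

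Contacts were measured by 5C (chromosome conformation capture carbon copy) in resting B cells from the spleen of C57Bl/6 mice. The cells were unstimulated and were obtained by negative selection against CD43 with magnetic beads. Both libraries belong to a single group without another strain or treatment, and the design text calls them biological replicates. How many mice gave the cells of a library is not given in the sources used here, and contact counts cannot check the labelled cell type against marker genes. The stated purpose was a map of contacts across the whole Igh locus, with detection in both replicates as the criterion for a loop.

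VH gene segments code for most of the variable part of the antibody heavy chain. In developing B cells 1 of them is joined to a DH and a JH segment, and the proximal families are known for their frequent use early in development. The locus is folded while this happens, which brings VH segments near the recombination centre. Mature B cells have finished this joining, and an allele that has been rearranged lacks the DNA between the joined segments, so the distances given here are those of the reference sequence. In 5C, fixed chromatin is cut, here with HindIII, and religated, and a pair of primers then counts how often 2 chosen fragments were joined. A count therefore depends on the distance between the fragments, on their contact, and on how well both primers and fragments are recovered.

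In the RefSeq gene table of assembly GRCm38, a later build used here only for names and order, 32 of 183 VH entries precede the first Ighv7 gene. They run from Ighv5-1 to Ighv5-19. Of these, 20 belong to Ighv5 (the VH7183 family), 11 to Ighv2 (the VHQ52 family) and 1 is Ighv6-1, and 13 of the 32 are pseudogenes. No fragment was assigned to a gene, because no mm9 annotation was used here.

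The libraries held 16067416 and 15096402 counts in all, and the member pairs held 434003 (2.70%) and 390419 (2.59%) of them. Some of the highest member counts came from fragments that are neighbours on the chromosome. F130 is adjacent to R129 and R131, and F191 to R192, and these 3 pairs share a HindIII site, so their product can also arise without looping. They carried 69606 and 63296 counts and were left out of all that follows, as were the other such pairs of the 81 in the locus. The 1560 remaining members had a median count of 84 in replicate 1 and 82.5 in replicate 2, against 103 and 94 over all 10503 pairs. Zero counts were found at 39 and 41 member pairs, and 17 had 0 in both libraries, all of them toward the other VH domains. A count of 0 allows up to 3 counts at the same depth, and such limits cover counting error only. For the 597 member pairs that reached 100 counts in each library, replicates differed by a median of 1.31-fold. These counts were not scaled for depth, which was higher in replicate 1. A chi-square of the member counts came to 19.6 per degree of freedom, so the libraries differed by more than sampling noise and were kept as 2 replicates.

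Each count was set against the count expected at its distance, taken from a smooth fit of log2(count + 1) on distance over all pairs of the locus. The result is given as log2 of observed over expected, where 0 is the smooth decay. A second value, called corrected here, has the mean effect of each forward and each reverse primer removed as well. By its construction, the correction brings the mean of every fragment close to 0, so it can show how contacts of a fragment are divided between places and not how strong a fragment is. Over the member pairs the Spearman correlation between the libraries was 0.88 for the uncorrected and 0.57 for the corrected log2 values. Those points share primers and the distance fit, so these are descriptions only.

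Before any correction for primers, contacts of the proximal VH domain were high toward the constant end, near the expected level within the domain, and low toward the other VH domains. The 529 pairs with the constant end had a median log2 value of 0.82 ± 0.0887 (SD, n = 2 libraries), the 52 pairs within the domain 0.12 ± 0.122, and the 979 pairs with the other VH domains -0.39 ± 0.169. The median over all pairs of the locus was 0.30 ± 0.0355. The distances between the classes exceeded the spread between the libraries, and with only 2 libraries no test across samples was made. After correction the medians were 0.41 toward the constant end, 0.30 within and -0.17 toward the other VH domains, against 0.05 for all pairs. Iterative correction rescales raw counts until the primers of each type have equal mean counts per pair. After it, the medians of the 3 classes were 0.46, 1.28 and 0.24, against 0.22 for all pairs. The constant end stayed above the other VH domains under both corrections, at a smaller size. The place of the pairs within the domain changed, to the highest of the 3 under iterative correction, and the other VH domains were then no longer below the median of all pairs.

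The raw counts show how this adds up. The median count, averaged over the libraries, was 163.5 ± 7.78 toward the constant end, 444.5 ± 73.5 within the domain, and 48.5 ± 0.707 toward the other VH domains. These classes lie at different distances, with medians of 422, 112 and 1045 kb. Pairs with the constant end were 33.9% of the members and took 51.8% ± 0.0682 of their counts. Pairs within the domain were 3.33% of the members with 13.8% ± 0.952 of the counts, and pairs with the other VH domains were 62.8% with 34.5% ± 0.884. Single pairs weigh on these shares. Without F165-R819 the other VH domains held 31.2% and the constant end 54.4%, and without F158-R137 the domain itself held 9.08%.

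The count of pairs above the expected level followed the same order. Over all pairs of the locus 49.4% lay above the expected count in both libraries, and among the members 712 did, or 45.6%. Toward the constant end the number was 333 of 529 (62.9%), within the domain 24 of 52 (46.2%), and toward the other VH domains 355 of 979 (36.3%). After correction 38.2% of all pairs lay above in both libraries, and 310 (58.6%), 28 (53.8%) and 253 (25.8%) of the 3 classes did.

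Distance bands separate this from the different reach of the classes. From 100 to 250 kb the median log2 value was 0.25 and 0.15 toward the constant end in replicates 1 and 2, and -0.58 and -0.14 toward the other VH domains. From 250 to 500 kb it was 0.73 and 0.93 against -0.41 and -0.23. From 500 to 800 kb it was 0.997 and 1.18 against -0.52 and 0.03. The constant end was higher in these 3 bands, except that from 100 to 200 kb alone replicate 2 had -0.17 toward the constant end and -0.14 toward the other VH domains. Below 100 kb the order was the opposite, with -0.67 and -0.77 over 12 pairs toward the constant end and 2.10 and 2.11 over 2 pairs toward the other VH domains. The corrected medians were 0.55 and 0.47 against 0.01 and 0.05 from 250 to 500 kb, and 0.23 and 0.23 against 0.03 and -0.01 from 500 to 800 kb. Beyond 1500 kb, which only the other VH domains reach, the uncorrected medians were -0.73 and -0.38.

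Each fragment of the domain was then compared with itself, using only bands of 100 kb that held pairs on both sides. Averaged over the 16 fragments, the log2 value toward the constant end exceeded that toward the other VH domains by 1.39 in replicate 1 and 1.47 in replicate 2, a mean of 1.43 ± 0.0558. The difference was positive in both libraries at 15 of the 16 fragments. The exception was R171, with -0.69 and -0.31. With primer effects removed the mean difference was 0.63 ± 0.00869, positive in both libraries at 10 fragments and negative in both at 3 (R171, R192 and R208). With iterative correction it was 0.47, positive in both at 7 and negative in both at 4. A fragment had from 2 to 6 such bands, and those near the lower edge of the domain, with 2, rest on few pairs.

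The stretch of equal length directly above the domain, with 17 fragments and 1666 pairs, was measured the same way. There the side toward the constant end exceeded the other by 0.36 and 0.56, with 12 fragments positive in both libraries and 4 negative in both. After additive correction the values were -0.03 and 0.02, with 8 fragments positive and 7 negative, and after iterative correction -0.26 and -0.20. The 2 stretches share pairs with each other and with the same partners, and their difference was not tested.

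**Figure D1:**
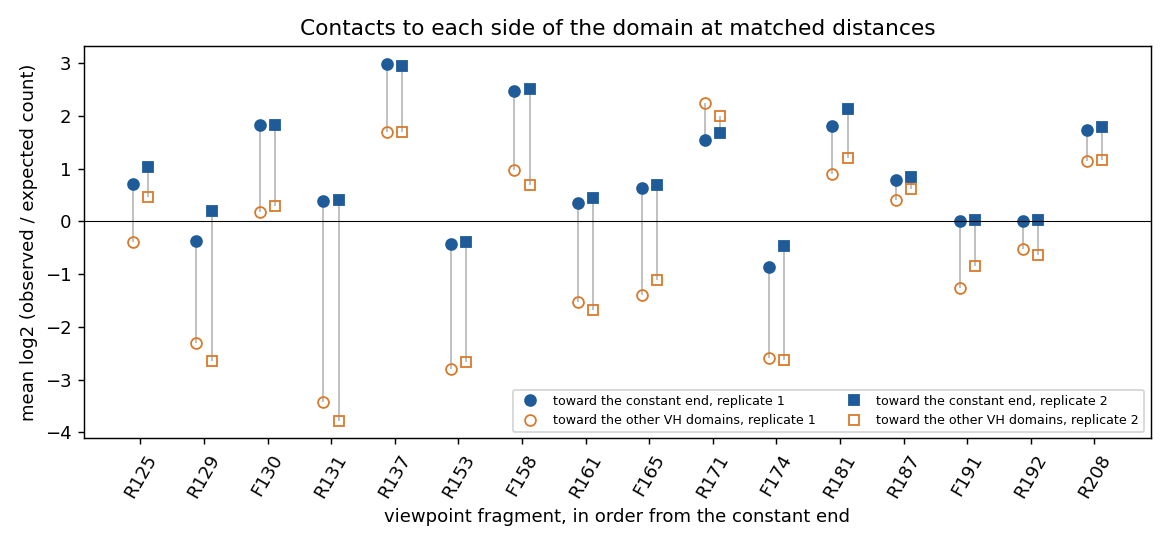
Mean log2 of observed over expected count toward the constant end (filled) and toward the other VH domains (open), at matched distances, for the 16 fragments of the domain in their order on the chromosome; circles are replicate 1, squares replicate 2, and grey lines join the sides within a library. The filled symbol is the higher in both libraries at 15 fragments, and R171 is the exception.

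The size of the side difference went with the level of the fragment, but the comparison is not independent. The level is a median over all pairs of a fragment, most of them toward the other VH domains. Some of those pairs also enter the difference, so level and difference are linked in part by construction. The 5 fragments with the lowest median log2 values had side differences from 1.95 to 3.99, and the 5 with the highest had from -0.50 to 1.66. The largest were at R131 (3.80 and 4.18), R129 (1.94 and 2.84) and R153 (2.36 and 2.26), fragments with median counts of 23 or less. The smallest positive one was at R187, with 0.38 and 0.24. The part that low counts play in these large differences was not tested. After correction the range was 0.96 to 3.28 for the 5 lowest fragments and -0.94 to 0.44 for the 5 highest.

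Partners were next grouped in windows of 100 kb, of which 25 held at least 10 member pairs. The 3 highest windows were all toward the constant end. They were 114515000 to 114614999 (mean log2 1.51 and 1.59), 114415000 to 114514999 (1.20 and 1.29) and 114339456 to 114414999 (0.92 and 1.10), the last cut by the end of the assayed interval. In the highest window 83.8% of 80 pairs lay above the expected count in both libraries. Their corrected means were 0.53, 0.66 and 0.43. The high stretch therefore covered the far part of the constant side, from 200 kb below the domain outward.

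The windows between this stretch and the domain were lower. From 114615000 to 114714999 the mean was -0.11 and 0.08, and from 114715000 to 114814999, directly beside the domain, it was -0.68 and -0.85. The correction turned the sign of the last one, to 0.49 and 0.30, so its direction rests on the treatment of the primers. All 5 windows toward the constant end were above 0 after correction.

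Of the 20 windows toward the other VH domains, 2 were above 0 in both libraries without correction. They were 116660000 to 116759999 (1.17 and 0.80) and 116560000 to 116659999 (0.40 and 0.61). The correction took the first to 0.22 and -0.31 and the second to -0.67 and -0.42, so neither was above 0 in both libraries then. The window from 115660000 to 115759999, at -0.36 and -0.27 before, was above 0 in both after correction (0.20 and 0.26). The 3 lowest windows were 116860000 to 116959999 (-2.28 and -2.66), 117060000 to 117159999 (-1.93 and -1.97) and 116260000 to 116359999 (-1.36 and -1.56). Their corrected values kept the sign. In the lowest window the median count was 10 and 6, so differences between its pairs were close to the limit of the depth.

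**Figure D2:**
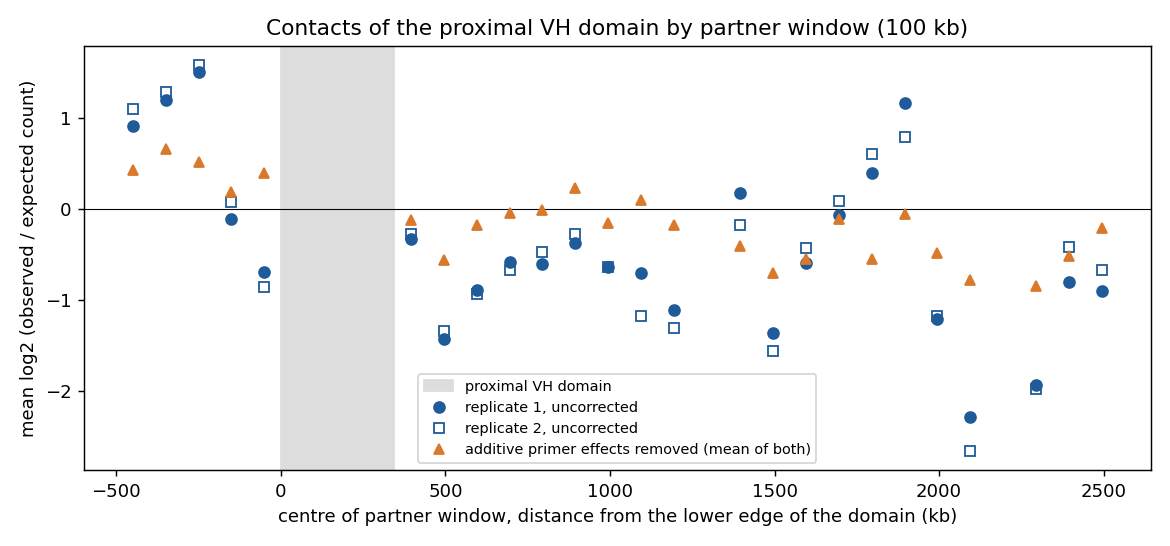
Mean log2 of observed over expected count of member pairs in windows of 100 kb, against the distance of the window from the lower edge of the domain (grey band: the domain); circles are replicate 1, squares replicate 2, triangles the mean of both after removal of primer effects. The 3 windows farthest toward the constant end lie between 0.92 and 1.59, and the one next to the domain lies below 0 before and above 0 after correction.

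Single partner fragments show the same division. Toward the constant end 42 of 65 partners had a median log2 value above 0 over the domain's fragments in both libraries, and 17 were above the expected count in both libraries at every fragment they were paired with. Toward the other VH domains 38 of 125 were above 0 and 2 were above at every fragment. A reverse partner was paired with at most 5 fragments of the domain and a forward partner with at most 11. Being above at every fragment is thus easier to reach for reverse partners. No such count was made for the whole locus, where the median of all pairs was itself 0.30 before correction. Of the 20 partners with the highest values, 18 lay toward the constant end. After correction 47 of 65 and 21 of 125 partners were above 0 in both libraries.

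The highest partners, named after their values were seen, were R33 (114486613 to 114491122), with a median log2 value of 3.75 and 3.68 over 5 forward fragments, R44 (114539129 to 114547720) with 3.49 and 3.28, and R37 (114501531 to 114502799) with 3.02 and 3.36. Forward fragment F38 (114502800 to 114510164) reached 3.10 and 3.04 and was above the expected count in both libraries with 11 of 11 reverse fragments of the domain. R33, R37 and F38 thus lie within the same window, and R44 in the next. Corrected, R33 stood at 1.11 and 0.95, R44 at 0.60 and 0.66, R37 at 1.06 and 0.86 and F38 at 0.54 and 0.43. R81 (114664824 to 114667095), the sixth in rank, had 2.90 and 2.91 before and 0.11 and -0.33 after correction. F611 (116559256 to 116561326), the highest partner among the other VH domains, had 2.25 and 2.11 before and -0.47 and -0.07 after.

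The domain's own fragments differed widely in level. R137 (114864513 to 114868474) was the highest, with a median log2 value over its 98 pairs of 1.76 ± 0.107 and a median count of 295.5 and 258. R171 (114996747 to 115006242) followed with 1.73 ± 0.110, R208 (115148612 to 115152740) with 1.58 ± 0.0733, F158 (114938327 to 114939720) with 1.21 ± 0.0455 and R181 (115048372 to 115052571) with 1.14 ± 0.0148. R137 and R171 did not differ beyond their spread. R208 lay below R171, and R181 below F158, by more than the SD of either fragment.

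The lowest were R129 (114836439 to 114838819) with -2.00 ± 0.0560, R131 (114840678 to 114842494) with -1.97 ± 0.0544, R153 (114919053 to 114921024) with -1.87 ± 0.163, F174 (115011448 to 115018809) with -1.57 ± 0.178 and R161 (114950757 to 114952521) with -0.91 ± 0.159. R129, R131 and R153 could not be ordered beyond their spread. Their median counts were 17, 20 and 20 in replicate 1 and 19, 15 and 23 in replicate 2. Together the 5 lowest fragments held 32 of the 39 zero counts of replicate 1 and 28 of the 41 of replicate 2. High and low fragments were interspersed along the domain, and R131 and R137 lie next to each other among the assayed fragments. Whether such a level reflects contact or recovery of the primer cannot be told apart from these counts.

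At each of the 5 highest fragments the constant side held the larger share of pairs above the expected count. R137 was above in both libraries with 31 of 34 partners toward the constant end and with 42 of 59 toward the other VH domains, and F158 with 29 of 31 and 37 of 66. F130, of middle level, showed 28 of 31 and 24 of 66. The low fragments showed the same division at a lower level, R131 with 16 of 34 and 3 of 59, R153 with 15 of 34 and 4 of 59, and R129 with 9 of 34 and 3 of 59. The division was smallest at R208, the fragment nearest to the upper edge, with 28 of 34 and 47 of 59.

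R171 was the fragment that went the other way. Its median count was 263.5 and 241.5 toward the constant end and 264 and 226 toward the other VH domains, although the latter lie farther away. It was above the expected count with 31 of 34 partners on the first side and 48 of 59 on the second, and its median log2 value was 1.45 and 1.45 on the first and 2.01 and 1.87 on the second. The share of raised pairs was thus not larger away from the constant end, but their size was. This was so in the 3 windows from 115560000 to 115859999, chosen after the values were seen. There the count of R171 with 18 forward partners had a lowest, median and highest value of 114, 457 and 1207 in replicate 1, and of 127, 387.5 and 860 in replicate 2. All 18 pairs were above the expected count in both libraries, with a median log2 value of 2.54 and 2.70, and 16 stayed above after correction, with a median of 0.91 and 1.10. For R137 with the same 18 partners the numbers were 15 and 7, with corrected medians of -0.02 and 0.38, and for R208 they were 16 and 5, with 0.07 and 0.18.

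Single pairs within this block were also high for R171. F344-R171 held 711 and 671 counts, with corrected log2 values of 3.42 and 3.73. F364-R171 held 1207 and 855 counts, with 2.59 and 2.37. F423-R171 held 646 and 860 counts. In the other direction, within its own domain, R171 was low with F130, the forward fragment nearest to the constant end: F130-R171 held 128 and 127 counts, with log2 values of -0.88 and -0.57 before and -2.82 and -2.50 after correction. F158-R171 held 1501 and 661 counts, above the expected count (1.62 and 0.82), and fell below 0 only after correction (-1.11 and -2.02). At matched distance its contacts toward the constant end were lower than those toward the other VH domains, and after correction too, by -1.10 and -0.79.

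A pair was called when its deviation from the expected level was at least 2 local standard deviations (z of 2 or more) in both libraries. Over the locus 0.724% of pairs were called (76 of 10503), and among the members 8 were, or 0.513%. Of these 6 joined the domain to the constant end (1.13% of 529), 1 lay within the domain (1.92% of 52) and 1 reached the other VH domains (0.102% of 979). All 8 had at least 2162 counts in replicate 1 and 2095 in replicate 2. R137 and F158 had 3 calls each, sharing the pair F158-R137, and 3 calls had neither end there. By this scoring the share of members called was below that of the locus and the share toward the constant end above it, and both directions turned under iterative correction.

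The strongest call was F165-R819, over 2.32 Mb between F165 (114973711 to 114977500) and R819 (117289594 to 117292548), near the upper end of the assayed interval. It held 16225 and 16643 counts, 263 ± 17.7 times the expected count. The pair alone made up 44.1% and 47.0% of all counts of F165, and 21.9% and 24.5% of those of R819. The 8 pairs formed by the fragments next to both ends held at most 86 counts in replicate 1 and 173 in replicate 2, and 1 of them was above the expected count in both libraries. That neighbour was F158-R810, with log2 values of 0.41 and 1.51. F165-R819 itself had corrected log2 values of 8.19 and 8.23. Whether it is a contact or a product of these 2 primers was not tested.

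Within the domain the call was F158-R137, over 72.5 kb. It held 19046 and 16579 counts, 47.2 ± 3.86 times the expected count, which was 29.3% and 29.9% of the counts of F158 and 27.4% and 26.5% of those of R137. Of 7 neighbouring pairs, with 47 to 3212 counts in replicate 1 and 1 to 2357 in replicate 2, 3 were above the expected count in both libraries. Corrected, the pair stood at 2.87 and 2.85.

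**Figure D3:**
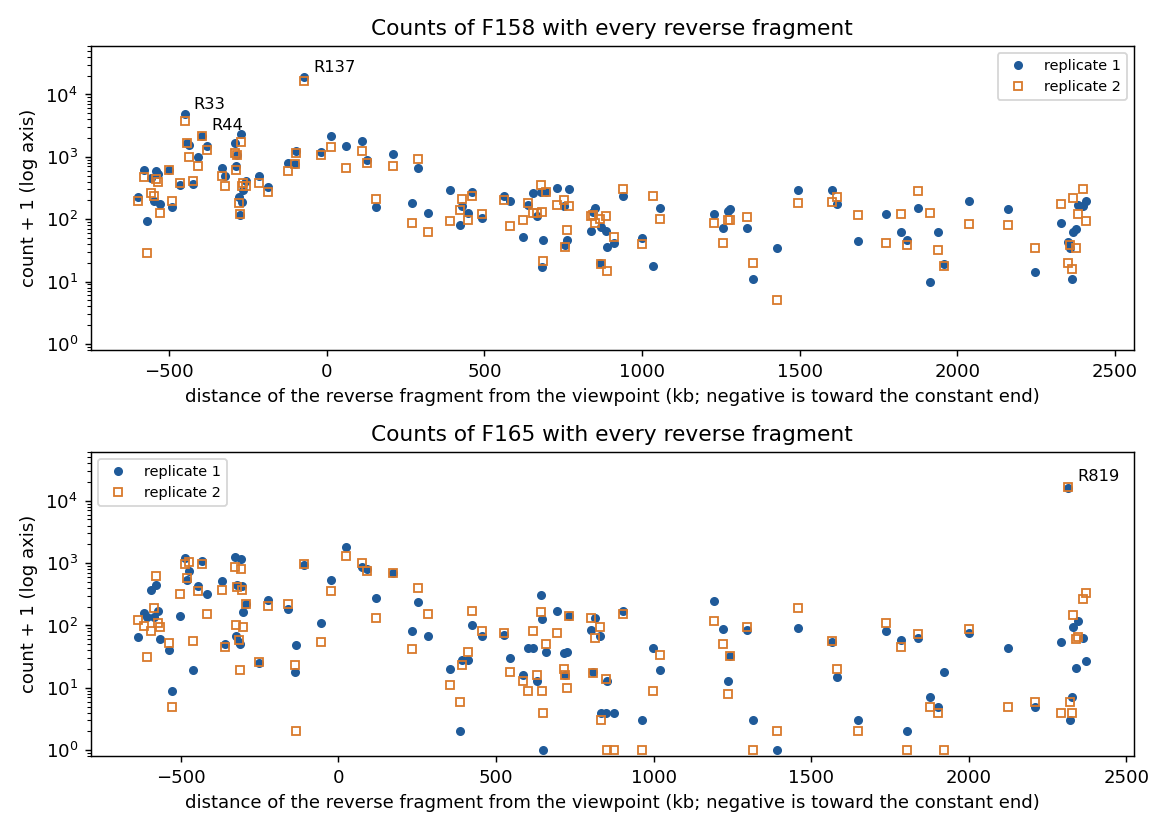
Counts of F158 (top) and F165 (bottom) with every reverse fragment on a log axis (count + 1), against distance from the viewpoint, negative toward the constant end; filled circles are replicate 1, open squares replicate 2. F158 peaks at R137 (19046 and 16579 counts) and at R33 and R44 toward the constant end, and F165 has its single highest count with R819, at the far end of the locus.

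Of the 6 calls toward the constant end, 5 joined the domain to fragments between 114465909 and 114547720. F34-R181 (114491123 to 114493851 for F34), over 558 kb, held 4947 and 4892 counts, 65.2 ± 7.53 times the expected count. All 8 of its neighbouring pairs were above the expected count in both libraries, with medians of 447 and 431 counts, and their corrected medians were near 0 (0.01 and 0.03). The pair itself stood at 4.09 and 4.40 after correction. F158-R33, over 450 kb, held 4777 and 3691 counts, 49.2 ± 2.40 times expected, and F158-R44, over 396 kb, held 2162 and 2193, 23.0 ± 3.23 times expected. All 8 neighbours of each were above the expected count in both libraries, so before correction these 2 calls stood on a broad raised area. Some of these neighbours share a primer with the called pair. The median log2 value of the neighbours of F158-R33 fell from 3.12 and 3.00 to 0.77 and 0.86 after correction. For F158-R44 it fell from 3.09 and 2.72 to 0.68 and 0.36.

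R137 made the other calls in that stretch. F38-R137, over 360 kb, held 2701 and 2773 counts, 26.5 ± 3.95 times expected, and F28-R137 (114465909 to 114474052 for F28), over 397 kb, held 2179 and 2172, 23.0 ± 2.95 times expected. Their neighbours were above the expected count in 7 of 8 and 6 of 8 cases. The sixth call, F16-R208 (114399193 to 114400223 for F16), spanned 751 kb and held 2303 and 2095 counts, 37.1 ± 1.32 times expected, with 4 of 8 neighbours above and a corrected value of 3.22 and 3.19.

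The calls parted into 2 kinds under the corrections. F165-R819, F34-R181, F16-R208 and F158-R137 were also called with primer effects removed and with iterative correction. Both corrections act on single primers and cannot remove a product of 2 particular primers. Whether any of these pairs is such a product was not tested. The neighbours of F16-R208, like those of F165-R819, were far lower, with at most 167 and 442 counts. F158-R33, F158-R44, F38-R137 and F28-R137 were not, with corrected log2 values between 0.37 and 1.42. These 4 pairs join high fragments of the domain to high fragments of the constant end. Just inside the threshold was F28-R137 (z of 2.06 and 2.04), and just outside were F31-R137 (1.97 and 2.05) and F158-R35 (1.94 and 1.92). The threshold therefore split a series of similar pairs.

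**Figure D4:**
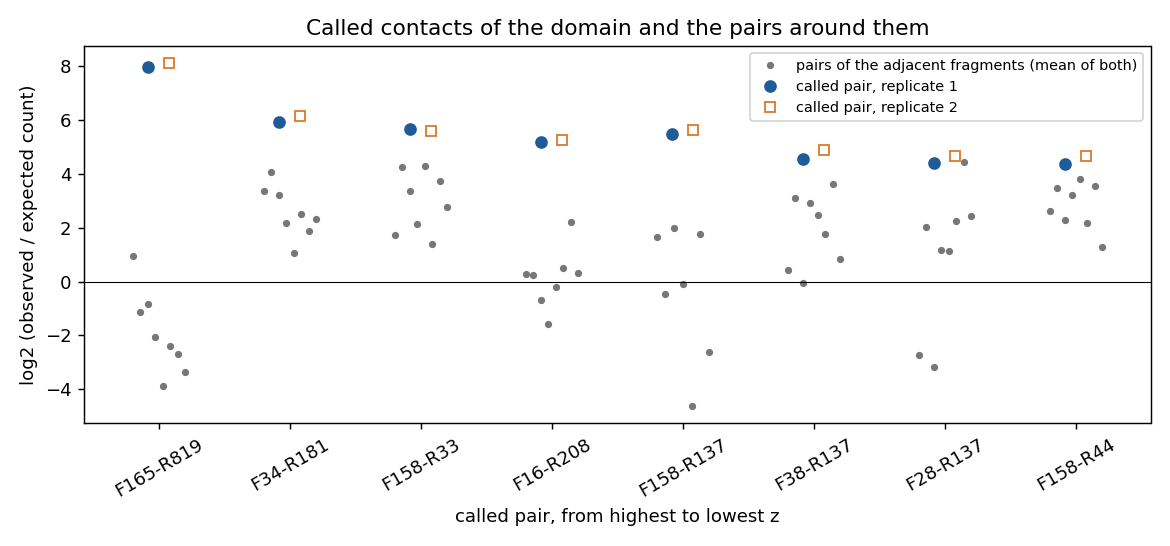
Log2 of observed over expected count of the 8 called pairs (circles: replicate 1, squares: replicate 2), in order of z, with the pairs of the adjacent fragments as grey points (mean of both libraries). F165-R819 stands far above its 8 neighbours, and the neighbours of F34-R181, F158-R33 and F158-R44 are all above 0.

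Within the domain the 52 pairs spanned 12.6 to 311 kb. F158 was the forward fragment with the highest contacts, above the expected count in both libraries with 8 of 11 reverse fragments. Before correction its highest log2 values after R137 were with R181 (2.55 and 2.37) and R208 (2.52 and 2.22), farther up the domain. These fell to 0.40 and 0.11, and to 0.03 and -0.48, after correction. Its contacts with R131 and R129, near the lower edge of the domain, stood out only after correction. With R131, F158 held 1246 and 1169 counts, with R129 769 and 763, and with R125 796 and 596. Corrected log2 values were 2.86 and 3.11 for F158-R131, 2.20 and 2.44 for F158-R129 and 0.70 and 0.37 for F158-R125. Together with F158-R137, F158-R131 and F158-R129 made a group of adjacent fragments, R129 to R137, that were raised with F158.

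The forward fragments farther up, F165, F174 and F191, did not show this. F130, on the other side of F158, could not be compared at R129 and R131, with which it shares HindIII sites. F165 held 47 counts in replicate 1 and 1 in replicate 2 with R131, and 17 and 22 with R129. F174 held 6 and 1 counts with R131 and 5 and 2 with R129, and F191 held 7 and 6 with R131 and 5 and 4 with R129. These counts are close to the limit of the depth, and the corrected values of F165-R131 differed widely between libraries, at 0.09 and -3.97. With R137 the same fragments were above the expected count, and all 5 forward fragments were so in both libraries.

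Farther up the domain F165 was raised with R187, at 802 and 732 counts and corrected values of 1.32 and 1.39. F191-R125, spanning 276 kb, held 150 and 160 counts, close to the expected count (log2 values of 0.04 and 0.44), and stood at 1.24 and 1.52 after correction. The pair with the widest span, F130-R208 over 311 kb, held 768 and 1015 counts, with log2 values of 2.56 and 3.25 before and 0.87 and 1.46 after correction. F191-R129, also across the domain, went the other way, at -4.73 and -4.69 before correction. F130-R192 differed in sign between the libraries, at -0.52 and 0.60. R153 and R161 were above the expected count with none of the 5 forward fragments in both libraries, and after correction their medians over these fragments were 0.12 and -0.31 for R153 and 0.19 and -0.06 for R161.

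**Figure D5:**
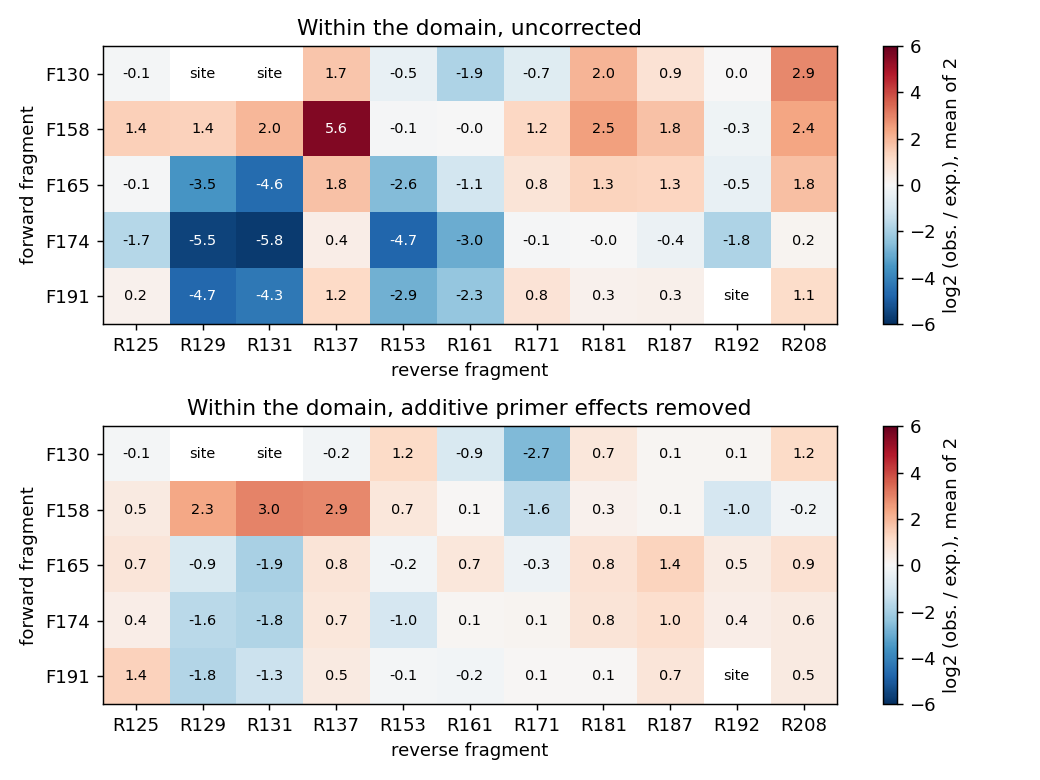
Log2 of observed over expected count for each forward (rows) and reverse (columns) fragment pair of the domain, mean of 2 libraries, before (top) and after (bottom) removal of primer effects; the 3 pairs that share a HindIII site are left white. F158 with R129, R131 and R137 stays raised after correction, at 2.32, 2.98 and 2.86, while the low columns of R129 and R131 become less low.

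Other scorings called other pairs. With primer effects removed, 1.22% of all pairs were called, and 25 members (1.6%, a larger share than in the locus), 12 toward the constant end, 3 within the domain and 10 toward the other VH domains. The 3 within the domain were F158-R137, F158-R131 and F158-R129. Of the 25, 10 had under 250 counts in both libraries. With iterative correction 0.533% of all pairs were called and 9 members (0.577%), of which 2 were toward the constant end (0.378% of that class, below the share of the locus), 2 within and 5 toward the other VH domains. On the linear scale with all pairs in the fit, 1.41% of all pairs were called and 19 members (1.22%, a smaller share than in the locus). Of these, 13 lay toward the constant end (2.46% of that class). Across these scorings 32 further member pairs were called that the first did not call.

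Among the added pairs toward the other VH domains, those named here were chosen after their values were seen. F661-R129 (116735642 to 116742143 for F661) held 474 and 352 counts over 1.90 Mb, high for R129, whose median count in that direction was 12 and 8, and it stood at 3.67 and 3.17 after correction. F344 (115621851 to 115623605) was called with R171 and with R125, the latter at 152 and 116 counts and corrected values of 3.49 and 3.31. R192 (115093815 to 115096374) was called with F377, F436, F513 and F769, at 110 to 256 counts in replicate 1 and 148 to 276 in replicate 2. None of them was called before correction, when their log2 values ran from 0.56 (F377-R192) to 3.22 (F344-R171) in replicate 1. All of these pairs were called with additive primer effects removed. Only F661-R129, F436-R192 and F769-R192 were also called with iterative correction.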

How the data were processed

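Per the file headers, the deposited count of each forward and reverse primer pair comes from all-by-all matrices of the my5C tool, after a step called transpurge. Novoalign and mm9 are named in the submitters' processing notes; their versions, the mapping settings and any primer correction were not given in these sources. Reads carried no stated molecular identifiers. Primers for a chromosome 5 gene desert, also in the design, were not analysed here.

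Both libraries were read in full, and no column was left unmapped. Expected counts came from a LOWESS fit of log2(count + 1) on log10 midpoint distance over 10503 pairs (span 0.2, 0 robustness steps), per library, without pairs that share a HindIII site. Squared residuals were smoothed with the same LOWESS settings, and z is the residual over the root of that smooth. The log2 scale was used because a linear fit at short distance is set by a few very high pairs. Additive primer effects were removed over 200 rounds, and iterative correction of raw counts ran for 100 rounds. Neighbours of a pair are the pairs of the adjacent fragments of each primer type. Python 3.11.15, numpy 2.4.6, pandas 2.3.3, scipy 1.17.1, statsmodels 0.14.6 and matplotlib 3.10.9 were used, and the functions were tested on simulated data.

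Named items were all called member pairs, the 5 highest and 5 lowest fragments of the domain, the 3 highest and 3 lowest windows, and the pairs at 0 as a count; other items were picked with their values in view. The members, lists and settings were chosen with earlier results of these data known. Alternatives were other scales, corrections, spans, pseudocounts, thresholds, filters, bands and edges, and leaving out each library.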

Additional observations from a re-analysis of the deposited data

How the results depend on the processing

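The direction of the comparison, constant end above the other VH domains, was kept under every alternative run, and its size was not. The difference at matched distance, 1.43, became 0.63 with additive correction, 0.47 with iterative correction, 1.21 with a pseudocount of 10, 1.24 without primers of low totals, 1.03 with both edges moved inward by 50 kb, 1.34 with bands of 50 kb and 1.31 with bands of 200 kb. It ran from 1.39 to 1.47 with 1 library left out.

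The median toward the constant end, 0.82, became -0.65 on the linear scale, 0.41 and 0.46 with additive and iterative correction, 0.56 with a pseudocount of 10, 0.48 without pairs of low counts and 0.27 without primers of low totals (0.76 to 0.88 with 1 library left out). The median within the domain, 0.12, became -2.18 on the linear scale, 0.30 and 1.28 with the corrections and -0.46 without primers of low totals (0.03 to 0.20). Iterative correction alone put it above the constant end. The median toward the other VH domains, -0.39, became -1.82, -0.17 and 0.24 under the linear scale and both corrections, -0.57 with a pseudocount of 10 and -0.21 with the edges moved inward (-0.51 to -0.27). The linear scale moved the median of all pairs from 0.30 to -1.20, so its levels are read against that.

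The 8 calls became 19 on the linear scale, 25 with additive correction, 13 with a pseudocount of 10, 29 at z of 1.5 and 1 at z of 3 (8 to 9 with 1 library left out). The share of all pairs called was not computed for the pseudocount and the z thresholds. Those counts therefore do not compare the members with the locus. Under iterative correction F28-R137 and F158-R44 turned to mean z of -0.72 and -0.021. F165-R819 was called under all settings. The shares of counts without F165-R819 were 54.4% (constant end) and 31.2% (other VH domains), and without F158-R137 the share within was 9.08%. These settings were added after the data were seen. With 1 library left out the shares ran from 51.7% to 51.8%, 33.8% to 35.1% and 13.1% to 14.4%. No paired analysis was possible because there was only 1 group. Low depth limits R129, R131, R153 and F174, with median counts of at most 30, and the window from 116860000 to 116959999, with 10 and 6.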
